A study of Mus musculus with 6 samples.

Results

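The LIM-only genes Lmo1, Lmo2, Lmo3 and Lmo4 and the LIM-binding cofactor genes Ldb1 and Ldb2 were measured in the ventral dentate gyrus of male mice after chronic restraint stress (CRS) and in unstressed controls (Ctrl). The 6 genes were taken by symbol from the 24062 gene symbols of the count files, and all 6 were found there. Lmo1 was put forward because it stood at rank 3 by p among the 7170 genes with a positive log2 fold change of CRS over Ctrl (log2 FC) in the same comparison, and the other 5 were added by family name. The values of Lmo1 between the groups are therefore a description and carry no test. The CRS group held 3 libraries from C57black 6 mice given repeated restraint, and the Ctrl group held 3 libraries from C57black 6 mice that were not stressed. No transgene or deletion is labelled in either group, and no ages are given. As the number of animals behind a library is not stated, p-values measure the spread between these libraries. The series concerns the glial glutamate exchanger xCT in resilience to stress.

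LIM-only proteins consist of little more than a pair of LIM domains, zinc-binding folds that bind other proteins and not DNA. They act as bridges: the LIM domains bind LDB proteins, which pair with themselves and so join transcription factors at distant sites, as in the complexes of LMO2, LDB1, TAL1 and GATA factors in blood cell formation. LIM homeodomain factors use the same LDB surface, so LIM-only proteins can compete with them for it. LMO1 and LMO2 are known as oncogenes of T-cell leukaemia, LMO1 and LMO3 are linked to neuroblastoma, and LMO3 and LMO4 are abundant in forebrain neurons.

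Promoter windows from RefSeq on GRCm38.p6, running from 250 bases before to 50 bases after an annotated start, were at hand for 4 of the 6 genes. For Lmo1 and Lmo3, the genes with the highest log2 FCs here, 1 window each is printed 5′ to 3′ on the gene's strand. Lmo1 has 2 windows from different annotated starts, of which the first listed is printed, and Lmo3 has 1. Capitals mark the LIM homeodomain core site TAATTA and the E-box CANNTG, the site that partners of LMO proteins such as TAL1 and the E-proteins bind. Both motifs read the same on either strand, and the marked matches do not overlap.
Lmo1, chr7:109175158-109175457, minus strand: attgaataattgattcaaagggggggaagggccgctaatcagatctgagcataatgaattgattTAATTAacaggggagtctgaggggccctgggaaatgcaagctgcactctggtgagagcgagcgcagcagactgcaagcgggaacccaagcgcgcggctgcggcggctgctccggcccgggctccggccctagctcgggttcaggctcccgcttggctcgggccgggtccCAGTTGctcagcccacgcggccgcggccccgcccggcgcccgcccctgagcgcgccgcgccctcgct
Lmo3, chr6:138581919-138582218, minus strand: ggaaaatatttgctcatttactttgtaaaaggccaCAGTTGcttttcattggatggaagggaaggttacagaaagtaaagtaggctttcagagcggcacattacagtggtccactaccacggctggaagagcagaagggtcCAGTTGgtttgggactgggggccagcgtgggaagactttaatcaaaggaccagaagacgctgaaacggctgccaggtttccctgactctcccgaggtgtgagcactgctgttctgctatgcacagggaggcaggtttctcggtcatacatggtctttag
The printed Lmo1 window held 1 TAATTA match, beginning 186 bases before its start, and 1 E-box, beginning 17 bases before it. In the other Lmo1 window the same TAATTA and E-box began 244 and 75 bases before that window's start. TAATTA was present in 5.29% of 32851 RefSeq windows of the same length, and an E-box in 72.3%. The Lmo3 window held 2 E-boxes, beginning 215 and 109 bases before the start, and no TAATTA. Both E-boxes read CAGTTG on the printed strand, as does that of Lmo1. The share of all windows with CAGTTG was not counted, so nothing is read from this. The printed Lmo1 window was 66.3% G and C, the other Lmo1 window 74.3%, the Lmo3 window 50.0%, and the median window 52.7%. The letters GATA, the core of GATA factor sites, had no match on either strand in these windows of Lmo1 and Lmo3, and were present in 57.9% of all windows. These matches describe letters in the windows and do not show binding.

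Gene counts summed to between 8575540 and 9626686 in CRS libraries and between 8305753 and 10107953 in Ctrl libraries, and a count of 0 allows up to 0.361 CPM in the shallowest library, for counting error alone. CPM are counts put on a common library total, here after scaling by trimmed mean of M values (TMM). CRS replicate 1 stood apart from the other 5 libraries in its tissue makeup. The summed level of 7 granule neuron markers, which include the dentate gyrus factor Prox1, was 329, 679 and 799 CPM in CRS replicates 1, 2 and 3, against 707, 688 and 570 CPM in Ctrl replicates 1, 2 and 3. All 7 markers were above 3 counts, so the labelled tissue was represented in each library. The 8 striatal neuron markers found in the files summed to 648 CPM in CRS replicate 1, to 78.1 and 78.2 CPM in CRS replicates 2 and 3 and to between 82.5 and 107 CPM in Ctrl libraries. The 8 choroid plexus markers summed to 4803 CPM in CRS replicate 1, to 32.6 and 28.7 CPM in CRS replicates 2 and 3 and to between 24.8 and 27.4 CPM in Ctrl libraries. The same library was also highest for the CA3 pyramidal markers, at 264 CPM against 83.3 to 121 CPM in the other 5 libraries, and for the oligodendrocyte markers, at 4350 CPM against 1817 to 2855 CPM. 2 other lists differed between the groups with no overlap. The 6 thalamus and habenula markers summed to between 193 and 239 CPM in CRS libraries and between 330 and 348 CPM in Ctrl libraries, and the 6 astrocyte markers to between 1182 and 1344 CPM in CRS and between 1357 and 1516 CPM in Ctrl. None of these markers was at 3 counts or fewer in every library. The part of this makeup in the values of the 6 genes was not tested, and the log2 FC without CRS replicate 1 is given with each of them. In tissue RNA of this kind, fewer cells of a type and less RNA per cell cannot be told apart.

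**Figure D1:**
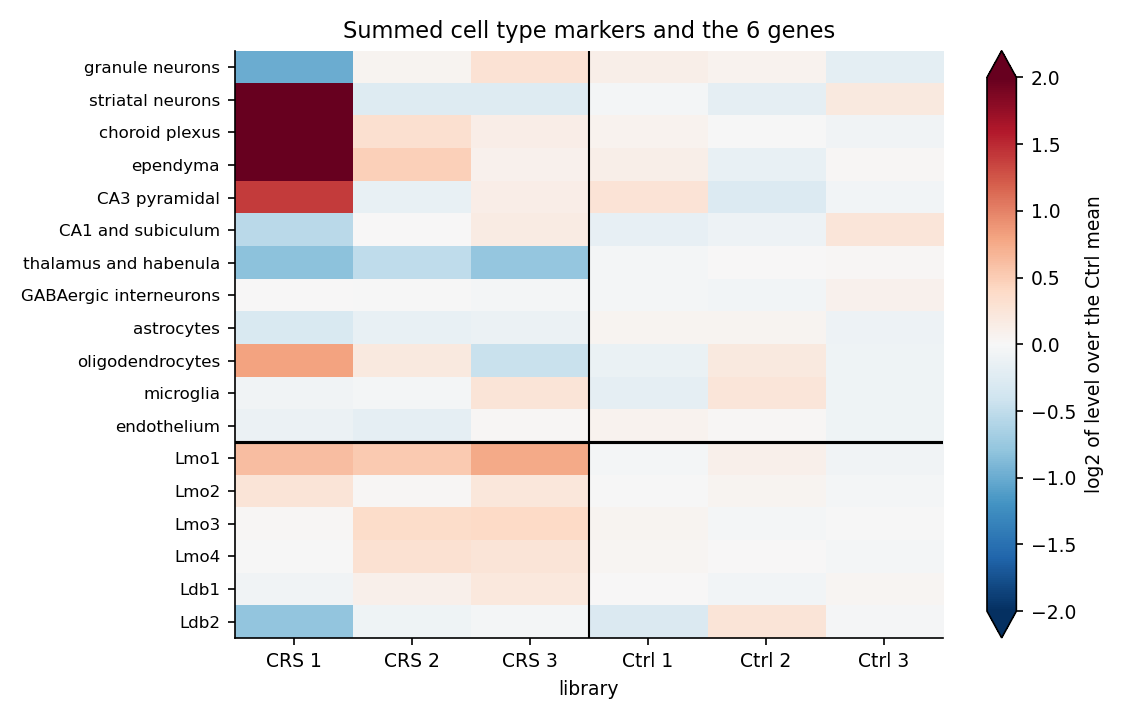
Summed levels of 12 cell type marker lists and levels of the 6 genes in each library, as the log2 of the level over the mean of the Ctrl libraries (colour, capped at 2 in either direction). CRS replicate 1 stands apart in the striatal, choroid plexus, ependymal, CA3 pyramidal, granule neuron and oligodendrocyte rows and the thalamus and habenula row is below the Ctrl mean in all 3 CRS libraries, while the Lmo1 row is above the Ctrl mean in all 3 CRS libraries.

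None of the 6 genes passed the threshold of an adjusted p of 0.05 in the CRS against Ctrl comparison by edgeR's quasi-likelihood test, where 4 of 14058 tested genes, or 0.0285%, passed in either direction. DESeq2 and limma-voom also called 0 of the 6. At an unadjusted p under 0.05, 2 of the 6 genes were counted, Lmo1 and Lmo3, both higher in CRS, where 8.71% of all tested genes were counted and 3.86% were counted as higher. 5 of the 6 log2 FCs were positive and 1 was negative, with a median of 0.18, while the median over all tested genes was 0.0038. Every CRS library was above every Ctrl library for 1 of the 6, Lmo1, where this held for 6.76% of all tested genes. Since Lmo1 was chosen from this comparison, nothing is read from its place in these counts.

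**Figure D2:**
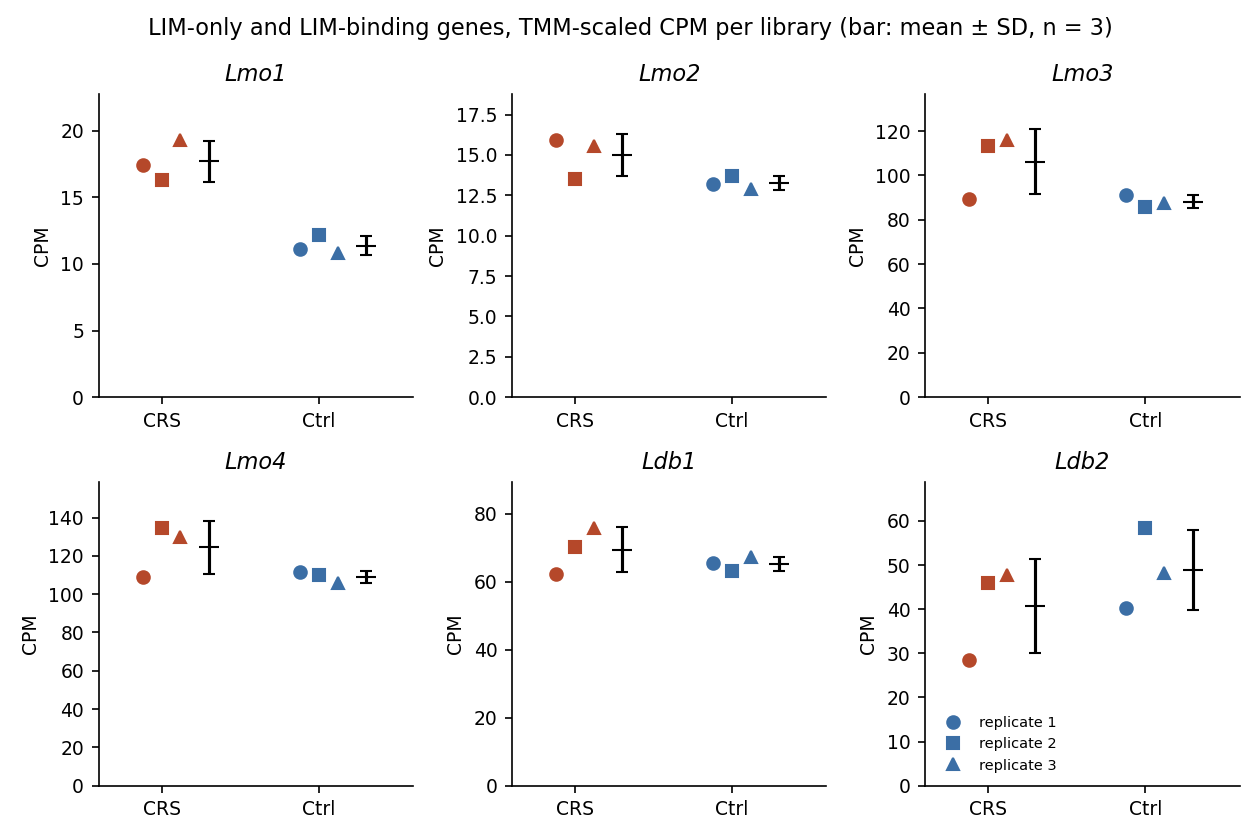
TMM-scaled CPM of each gene in every library, with CRS left of Ctrl, one symbol per replicate number, and the mean ± SD over 3 libraries beside the points. For Lmo1 the CRS libraries lie between 16.3 and 19.3 CPM and the Ctrl libraries between 10.9 and 12.2 CPM. For the other 5 genes the groups overlap.

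Lmo1 lies on chromosome 7 from 109138572 to 109175207 on the minus strand of GRCm38 (ENSMUSG00000036111.8, protein-coding). It was measured at 17.5, 16.3 and 19.3 CPM in CRS replicates 1, 2 and 3. In Ctrl replicates 1, 2 and 3 it was at 11.1, 12.2 and 10.9 CPM. The lowest CRS library was above the highest Ctrl library, and CRS replicate 1 lay between the other two CRS libraries. The means were 17.7 ± 1.53 CPM in CRS and 11.4 ± 0.686 CPM in Ctrl (SD, n = 3 each), a 1.55-fold difference and a log2 FC of 0.64 (SE 0.12). These values rest on counts of 160, 140 and 186 in CRS and 92, 124 and 102 in Ctrl. The counting error of one library was 7.33% to 10.4%, which was as large as the spread between libraries, at 8.62% of the mean in CRS and 6.02% in Ctrl. Without CRS replicate 1 the log2 FC was 0.65, and with any 1 library left out it ran from 0.57 to 0.69. The thalamus and habenula and the astrocyte markers also separated the groups, both lower in CRS, and their part in the Lmo1 values was not tested. The antisense gene Gm44781 overlaps Lmo1 on the opposite strand without sharing exon bases, and it was not analysed here.

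Lmo3 is the nearest relative of Lmo1 by protein sequence and lies on chromosome 6 from 138362918 to 138581968 on the minus strand. It was at 89.3, 113 and 116 CPM in CRS replicates 1, 2 and 3, against 91.3, 85.9 and 87.4 CPM in Ctrl replicates 1, 2 and 3. CRS replicates 2 and 3 were above every Ctrl library, while CRS replicate 1 fell within the Ctrl range, so the groups overlapped. The means were 106 ± 14.7 CPM in CRS and 88.2 ± 2.79 CPM in Ctrl (SD, n = 3 each). The log2 FC was 0.27 (SE 0.10) and missed the threshold (adjusted p = 0.532 by edgeR). Without CRS replicate 1 it was 0.38 (adjusted p = 0.0571), which also did not pass. The SD between CRS libraries was 13.9% of the mean, against 3.16% between Ctrl libraries and a counting error of 2.99% to 3.64%.

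Lmo4 encodes a LIM-only protein that binds DEAF1 and CtIP and is widely expressed in cortex and hippocampus. It lies on chromosome 3 from 144188530 to 144205220 on the minus strand. Its level was 109, 134 and 130 CPM in CRS replicates 1, 2 and 3, against 112, 110 and 106 CPM in Ctrl replicates 1, 2 and 3. As for Lmo3, CRS replicates 2 and 3 were above all Ctrl libraries and CRS replicate 1 was among them. The log2 FC was 0.19 (SE 0.09, adjusted p = 0.601 by edgeR), and 0.28 without CRS replicate 1 (adjusted p = 0.110). Neither passed.

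Lmo2, the blood and vessel member of the family, lies on chromosome 2 from 103957986 to 103981878 on the plus strand. It was at 15.9, 13.5 and 15.6 CPM in CRS replicates 1, 2 and 3, against 13.2, 13.7 and 12.9 CPM in Ctrl replicates 1, 2 and 3. The groups overlapped through CRS replicate 2. The log2 FC was 0.18 (SE 0.11, adjusted p = 0.735 by edgeR), and 0.13 without CRS replicate 1. Since LMO2 is known from endothelial and blood cells, the levels of endothelial and red blood cell markers are given beside it. Those of microglia, which are resident cells of the brain, are also given. The 6 endothelial markers summed to between 170 and 195 CPM in CRS libraries and between 182 and 201 CPM in Ctrl libraries, and the 6 microglial markers to between 364 and 458 CPM in CRS and between 338 and 453 CPM in Ctrl. Both ranges overlapped between the groups, unlike those of the thalamus and habenula and the astrocyte markers given above. Of 5 red blood cell markers, the 4 globin genes were at 0 CPM in every library. The other, Alas2, was at 3.73 to 5.35 CPM in CRS libraries and 2.25 to 8.72 CPM in Ctrl libraries. Whether globin reads could be counted in these libraries is not known, so the values of 0 do not show that blood was absent.

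**Figure D3:**
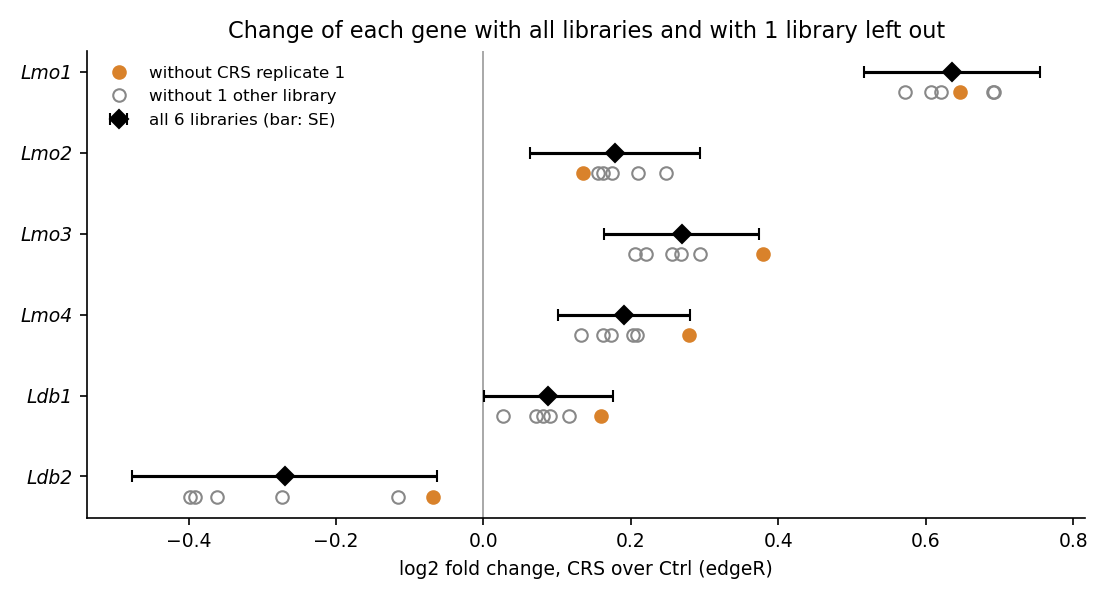
Log2 FC of each gene, CRS over Ctrl, from edgeR with all 6 libraries (diamond, bar: SE from limma-voom) and with each library left out in turn (circles, filled for the fit without CRS replicate 1). Lmo1 runs from 0.57 to 0.69 with 1 library left out, and Ldb2 from -0.40 to -0.07.

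Ldb1, the ubiquitous LIM-binding cofactor, lies on chromosome 19 from 46031570 to 46045214 on the minus strand. It was at 62.4, 70.2 and 75.7 CPM in CRS replicates 1, 2 and 3, against 65.5, 63.2 and 67.4 CPM in Ctrl replicates 1, 2 and 3. The CRS libraries spanned the Ctrl range, and the log2 FC of 0.09 (SE 0.09) missed the threshold (adjusted p = 0.842 by edgeR). It was 0.16 without CRS replicate 1 (adjusted p = 0.466) and 0.03 without CRS replicate 3. Its exons overlap those of the oppositely oriented gene Pprc1. As the strand setting of the counting is not given in the sources used here, how reads of the shared bases were counted is not known. Some may be among the ambiguous reads that were left out.

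Ldb2, the paralogue of Ldb1, lies on chromosome 5 from 44472132 to 44799680 on the minus strand. It varied most between libraries of the same group. It was at 28.4, 45.9 and 47.8 CPM in CRS replicates 1, 2 and 3, against 40.2, 58.3 and 48.3 CPM in Ctrl replicates 1, 2 and 3. CRS replicate 1 was the lowest of the 6 libraries and Ctrl replicate 2 the highest. The log2 FC was -0.27 (SE 0.21, adjusted p = 0.783 by edgeR), and it was -0.07 without CRS replicate 1 and -0.12 without Ctrl replicate 2. The SD was 26.3% of the mean in CRS and 18.6% in Ctrl, while the counting error of one library was 4.10% to 6.20%.

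The levels of the 6 genes were compared per length, as CPM per kb of merged exon length in GENCODE M21. Lmo4 was highest in every library, at 35.2 ± 3.89 CPM per kb in CRS and 30.9 ± 0.881 CPM per kb in Ctrl (SD, n = 3 each), and at percentile 90.6 of 13381 tested genes with a length by its mean over the 6 libraries. Lmo3 followed, at 20.7 ± 2.87 CPM per kb in CRS and 17.2 ± 0.542 CPM per kb in Ctrl. Ldb1 was at 15.1 ± 1.45 CPM per kb in CRS and 14.2 ± 0.448 CPM per kb in Ctrl, and Ldb2 at 12.2 ± 3.21 CPM per kb in CRS and 14.7 ± 2.72 CPM per kb in Ctrl. The ranges of Ldb1 and Ldb2 overlapped in CRS and in Ctrl. Within libraries, Ldb1 was above Ldb2 in all but Ctrl replicate 2, by 14.6 against 14.5 CPM per kb in Ctrl replicate 3. The difference between them was not tested. Ldb2 exceeded Lmo3 in Ctrl replicate 2 alone. Lmo1 was at 11.4 ± 0.983 CPM per kb in CRS and 7.33 ± 0.442 CPM per kb in Ctrl, and Lmo2 at 6.93 ± 0.606 CPM per kb in CRS and 6.12 ± 0.198 CPM per kb in Ctrl. Lmo1 was above Lmo2 in every library and above Ldb2 in CRS replicate 1 alone. Lmo1 and Lmo2 stood at percentiles 61.9 and 51.1 of the same 13381 genes.

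Within the family, Lmo1 made up a larger share of the Lmo transcripts in each CRS library than in any Ctrl library. Its share of the summed Lmo level per length was 16.8%, 13.7% and 15.7% in CRS replicates 1, 2 and 3. In Ctrl replicates 1, 2 and 3 it was 11.5%, 12.6% and 11.7%. The means were 15.4 ± 1.62% in CRS and 11.9 ± 0.626% in Ctrl (SD, n = 3 each), a difference of 3.49 percentage points. With CPM not divided by length, the share was 7.55%, 5.87% and 6.88% in CRS replicates 1, 2 and 3, against 4.90%, 5.49% and 5.01% in Ctrl replicates 1, 2 and 3, and the difference was 1.63 points. The share of Lmo4 was lower in every CRS library, at 46.1%, 49.5% and 46.6% in CRS replicates 1, 2 and 3, against 50.5%, 50.2% and 50.0% in Ctrl replicates 1, 2 and 3, while Lmo3 averaged 27.8 ± 1.51% in CRS and 27.9 ± 0.821% in Ctrl. As the shares add up to the whole, a larger share of Lmo1 lowers the others. The mean level of Lmo4 itself was not lower in CRS, with a log2 FC of 0.19 and overlapping groups. These shares are ratios within a library and do not depend on how libraries were scaled, but they contain the Lmo1 values that led to its choice and were not tested.

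The summed Lmo level over the summed Ldb level was 3.03, 2.65 and 2.57 in CRS replicates 1, 2 and 3, against 2.39, 1.99 and 2.06 in Ctrl replicates 1, 2 and 3. Every CRS library was above every Ctrl library, and the means were 2.75 ± 0.244 in CRS and 2.14 ± 0.213 in Ctrl (SD, n = 3 each). The highest ratio, in CRS replicate 1, went with the lowest Ldb2 level, and CRS replicates 2 and 3 had the highest summed Lmo levels, 76.9 and 79.1 CPM per kb, against 66.8 CPM per kb in CRS replicate 1 and 62.7, 62.0 and 59.9 CPM per kb in Ctrl replicates 1, 2 and 3. With CPM not divided by length, the ratio was 2.55, 2.39 and 2.28 in CRS replicates 1, 2 and 3 and 2.15, 1.82 and 1.87 in Ctrl replicates 1, 2 and 3. The ratio was formed after the values of its members were known and is a description, and the part of the markers that separate the groups in it was not tested.

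**Figure D4:**
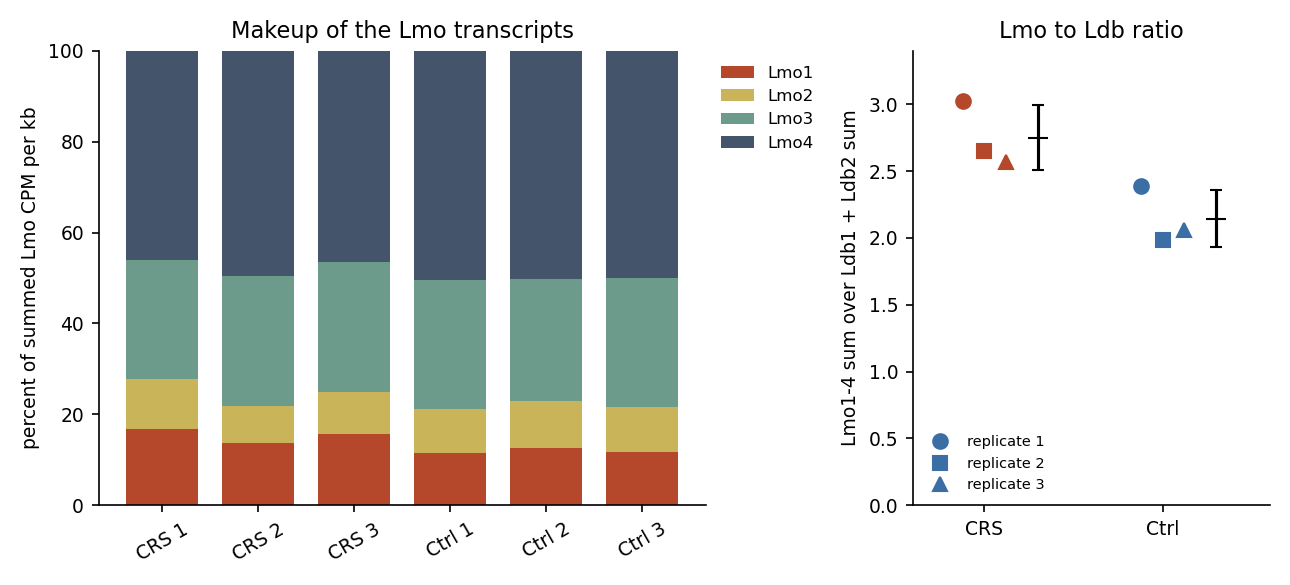
Left, the share of each Lmo gene in the summed Lmo level per length in every library, stacked to 100%; right, the ratio of the summed Lmo to the summed Ldb level per library, with the mean ± SD over 3 libraries. Lmo1 holds between 13.7% and 16.8% in CRS and between 11.5% and 12.6% in Ctrl. The ratio lies between 2.57 and 3.03 in CRS and between 1.99 and 2.39 in Ctrl.

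Genes of the wider LIM network did not pass. 68 genes in 4 lists were set beside the 6, of which 51 passed the filter on low counts. None of the 51 passed an adjusted p of 0.05 by edgeR in either direction, and DESeq2 and limma-voom also called 0. At an unadjusted p under 0.05 there were 4, 2 higher and 2 lower, against the 8.71% of all tested genes given above. The median log2 FC over the 51 was -0.0018. Every CRS library was above every Ctrl library for 4 of the 51 and below for 3, where this held for 6.76% and 7.84% of all tested genes.

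Among nuclear partners of LMO and LDB proteins, 15 of 19 were tested, with 7 positive and 8 negative log2 FCs and a median of -0.02. Ssbp2, which encodes a cofactor that binds LDB proteins and shields them from degradation, was at 113, 150 and 136 CPM in CRS replicates 1, 2 and 3, against 158, 160 and 162 CPM in Ctrl replicates 1, 2 and 3. All CRS libraries were below all Ctrl libraries, yet the log2 FC of -0.27 (SE 0.10) missed the threshold (adjusted p = 0.526), and it was -0.16 without CRS replicate 1. Its paralogues Ssbp3 and Ssbp4 had log2 FCs of 0.01 (SE 0.16) and 0.18 (SE 0.10), and Rlim, the ubiquitin ligase that targets LDB proteins, had -0.02 (SE 0.07). These 3 were named for their role after their values were seen. Deaf1, a transcription factor that LMO4 binds, was at 38.0, 41.3 and 41.8 CPM in CRS replicates 1, 2 and 3, against 36.4, 36.5 and 34.5 CPM in Ctrl replicates 1, 2 and 3, with a log2 FC of 0.17 (SE 0.08) at adjusted p = 0.614. Tcf4, an E-protein partner of tissue-specific bHLH factors, had a log2 FC of -0.17 (SE 0.08) at adjusted p = 0.631, and -0.11 without Ctrl replicate 1.

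Of the 12 LIM homeodomain genes, which compete with LIM-only proteins for LDB, 3 passed the filter on low counts and none passed the test. Lhx2, a factor of forebrain patterning, was at 34.1, 39.8 and 41.0 CPM in CRS replicates 1, 2 and 3, against 47.6, 40.1 and 43.1 CPM in Ctrl replicates 1, 2 and 3, with a log2 FC of -0.18 (SE 0.10) at adjusted p = 0.686 by edgeR. It was -0.11 without CRS replicate 1 and -0.12 without Ctrl replicate 1. Lhx9 had a log2 FC of 0.25 (SE 0.20), which was 0.02 without CRS replicate 1, 0.40 without CRS replicate 3 and 0.14 without Ctrl replicate 3, and the interneuron factor Lhx6 had 0.02 (SE 0.11). 3 genes below the filter, named after their values were seen, were found almost entirely in CRS replicate 1. Isl1, a factor of striatal projection neurons, had 34 counts there and 0 in the other 5 libraries. Lhx8, a factor of forebrain cholinergic neurons, had 15 counts there and 0 in the other 5, and Lmx1a had 36 counts there and 0 to 3 in the others. These counts stood in the library with the highest striatal and choroid plexus marker levels.

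Outside the nuclear complexes, the small LIM proteins of the FHL, CSRP and CRIP families had 9 of 12 genes tested and a median log2 FC of 0.02. The smallest adjusted p among them was 0.876. It belonged to Fhl1, whose log2 FC of 0.13 (SE 0.15) was -0.09 without CRS replicate 1, the library with the highest Fhl1 level at 66.9 CPM. Crip1 and Crip3 had log2 FCs of -0.21 (SE 0.28) and 0.20 (SE 0.29), and both turned without CRS replicate 1, to 0.015 for Crip1 and -0.023 for Crip3. The LIM scaffold proteins of the cytoskeleton had 24 of 25 genes tested, 11 positive and 13 negative, with a median of -0.02. Pxn, for the focal adhesion adaptor paxillin, was at 24.2, 26.4 and 22.8 CPM in CRS replicates 1, 2 and 3, against 20.2, 21.5 and 16.7 CPM in Ctrl replicates 1, 2 and 3, with a log2 FC of 0.33 (SE 0.12) at adjusted p = 0.522. Lims1, for the integrin-linked adaptor PINCH, had a log2 FC of -0.25 (SE 0.09) at adjusted p = 0.532, and Trip6, a zyxin relative, had 0.57 (SE 0.22) at adjusted p = 0.534.

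**Figure D5:**
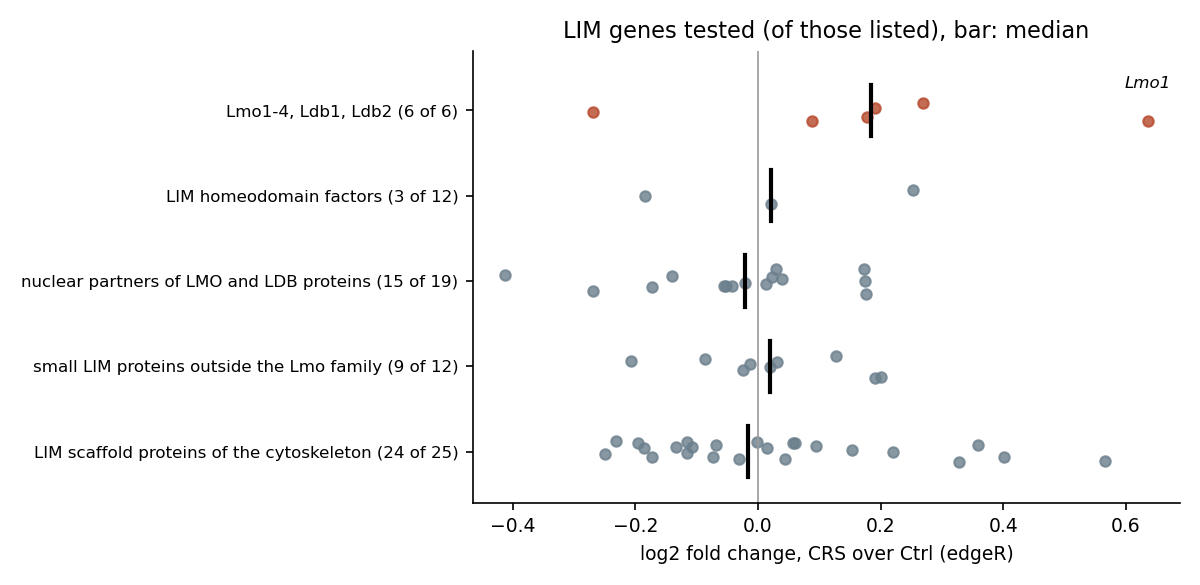
Log2 FC, CRS over Ctrl, of each tested gene among the 6 LIM-only and LIM-binding genes and in 4 lists of the wider LIM network. These lists hold other LIM genes and nuclear partners of LMO and LDB proteins. Each gene is a point with vertical jitter, and a bar stands at each median. The list medians lie between -0.02 and 0.02, and that of the 6 genes, which include the chosen gene Lmo1, at 0.18.

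The genes with profiles nearest to that of Lmo1 were sought among 12648 genes whose average log2 CPM was 1 or more. Clone (Rik), predicted (Gm), microRNA and small nucleolar RNA names had been left out of these. Likeness was the root mean square difference in log2 CPM over the 6 libraries, after each gene was centred on its own mean. The nearest was Aldh1b1, a mitochondrial aldehyde dehydrogenase gene, at a difference of 0.065. It was at 12.6, 12.1 and 12.8 CPM in CRS replicates 1, 2 and 3, against 7.63, 8.73 and 8.19 CPM in Ctrl replicates 1, 2 and 3. Next came Kcng2, for a modulatory potassium channel subunit, at 0.086, and Cnih2, for an auxiliary subunit of AMPA receptors, at 0.097. Dazl, for an RNA-binding protein of germ cells, followed at 0.11 and P4ha2, for a collagen prolyl hydroxylase subunit, at 0.11. All 5 had every CRS library above every Ctrl library, which likeness to Lmo1 favours. Lmo3 and Lmo2 were far less alike, at a difference of 0.23 each and ranks 454 and 468, and Ldb2 stood at rank 11611 with 0.53.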

How the data were processed

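RNA of the ventral dentate gyrus was sequenced in 3 CRS and 3 Ctrl libraries. Per the labels, ribosomal RNA was removed and the kit keeps the strand. The authors deposited raw counts per gene symbol, 1 file per library. The submitters' processing notes list TopHat2 2.0.9, HTSeq 0.6.1, edgeR 3.12.0, Trimmomatic 0.33 and FastQC 0.11.3 with no roles, and GRCm38 (mm10) as the build. Counting options are not given in the sources here. Reads without a gene (59.5% to 63.1% of a library) and ambiguous reads (0.211% to 0.253%) were left out.

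In R 4.3.3, genes were kept by filterByExpr of edgeR 4.0.16, libraries were scaled by TMM, and CRS was compared with Ctrl by edgeR's two-sided quasi-likelihood test with Benjamini-Hochberg adjustment over 14058 genes. SE come from limma 3.58.1 voom. Alternatives were DESeq2 1.42.0, limma-voom, RLE scaling, library totals, no filter, a minimum CPM of 1 in 3 libraries, a replicate block and each library left out. In 5 simulated draws for this comparison with 200 changed genes among 14058, the share called was 44.0% at a 1.5-fold change, 84.2% at 2-fold and 98.1% at 4-fold. The changed genes were drawn from those with a mean CPM of at least 2. With 200 changed genes the adjustment is less strict than in these data, where 4 genes passed. The shares may therefore overstate what could be called here. All pairs of libraries differed beyond sampling noise, with a chi-square per degree of freedom of at least 2.97. The members and lists were chosen with earlier results of these data known. Named genes were the 6 members, the 3 with the smallest p in each list and the 5 most like Lmo1; others are said to be named after their values were seen. Symbols were matched to GENCODE M21, where 94.4% matched exactly 1 gene. Promoter sequences are RefSeq's on GRCm38.p6.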

Additional observations from a re-analysis of the deposited data

How the results depend on the processing

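The log2 fold changes of the 6 genes kept their sign under all 13 alternatives and none of the 6 passed under any of them. That of Lmo1 ran from 0.57 to 0.69. The number of all genes higher in CRS, 0 in the comparison reported, was 39 by DESeq2, and it ran from 0 to 11 with 1 library left out. The number lower, 4 as reported, was 68 by DESeq2, 1 by limma-voom and 0 with the replicate block, and it ran from 0 to 30 with 1 library left out, 30 without CRS replicate 1, 26 without CRS replicate 2 and 0 without CRS replicate 3 or any 1 Ctrl library. The cause was not tested. Deviations of same-numbered libraries from their group means correlated at 0.14, -0.0076 and 0.042 for replicates 1, 2 and 3. Those of differently numbered libraries correlated at -0.15 to 0.12. With 3 libraries per group these values cannot decide whether the numbers pair the libraries. With the replicate block the log2 fold change of Lmo1 was 0.63. The sign with 1 library left out was followed for the named genes of the wider lists, the 3 with the smallest p in each. Among these named genes 4 changed sign, none of them past the threshold. Fhl1 ran from -0.086 to 0.23, Crip1 from -0.49 to 0.015 and Crip3 from -0.023 to 0.36, each turning without CRS replicate 1. Lhx6 ran from -0.0090 to 0.057, turning without CRS replicate 3. The signs of the other listed genes were not followed. The share of Lmo1 among Lmo transcripts, 3.49 percentage points higher in CRS, was 1.63 points higher with no division by length, which lowers the weight of a short transcript, and ran from 2.78 to 4.37 with 1 library left out. The Lmo to Ldb ratio, 0.607 higher in CRS, was 0.456 higher with no division by length and ran from 0.468 to 0.728 with 1 library left out. Counts of 92 to 186 limit the precision of Lmo1 more than that of Lmo3 or Lmo4, with 754 to 1252.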
